A study of Mus musculus with 4 samples.

Results

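The genes that build, load and switch on MHC class II were followed through the cells of mouse lung tumors profiled by droplet single-cell RNA-seq. The set holds 10 genes of the 31055 features in the deposited table, chosen by symbol alone. They are H2-Aa, H2-Ab1 and H2-Eb1 for the class II chains, Cd74 for the invariant chain, Ciita for the transactivator, H2-DMa, H2-DMb1 and H2-DMb2 for the peptide loader H2-DM, and H2-Oa and H2-Ob for its inhibitor H2-O. All 10 were found, each in 1 row. The levels below are unique molecular identifiers (UMIs, one per captured transcript) summed over the cells of a type and scaled to counts per 1000000 UMIs of that type (CPM), with the 95% exact Poisson interval.

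The study asked what returning the tumor suppressor LKB1 does to established lung tumors. Its labels give 4 female mice, 2 called Restored and 2 called Non-Restored. All 4 carried the Cre-activated oncogene KrasLSL-G12D. Both copies of Lkb1 were the XTR allele, a gene trap that Cre turns on and that a FLP recombinase can remove (Lkb1XTR/XTR). A Rosa26LSL-tdTomato reporter marked every cell that had seen Cre. The Restored mice also carried FLPo-ERT2, a FLP recombinase that needs tamoxifen, on their other Rosa26 copy, and the Non-Restored mice did not. FLPo-ERT2 sits at Rosa26 rather than under a tumor promoter, so tamoxifen can act in any cell of a Restored mouse. Tumors grew for 16 weeks after Lenti-Cre was given into the airway, and every mouse received tamoxifen in doses of 4 mg for 2 weeks, so none of the 4 was an untreated control. Cells of dissected tumors were sorted for viability alone. The deposited matrix pools the 4 mice without saying which cell came from which, so each value below describes Restored and Non-Restored tumors together, as 1 sample. No Restored against Non-Restored comparison and no test between cell types was made, and the intervals cover counting error only. If a cell type came mostly from 1 mouse or group, its values and those of that mouse cannot be told apart.

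MHC class II molecules carry peptides from internalized proteins to the cell surface, where CD4 T cells read them. An alpha and a beta chain (H2-Aa with H2-Ab1, and H2-Eb1 with an alpha partner where a strain makes one) fold around the invariant chain Cd74. It fills the groove and guides them to endosomes. There H2-DM removes the last piece of Cd74 and exchanges peptides, and H2-O holds H2-DM back. Ciita does not bind DNA itself but is recruited to the promoters of these genes by factors that sit on their X and Y boxes, and interferon-gamma is its best known inducer. Dendritic cells, B cells and macrophages are the classical presenting cells, and in the lung alveolar type II cells are known to carry class II as well.

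The 8 H2 members lie in one stretch of the mouse major histocompatibility complex, chr17:34092340-34316674 in mm10, from H2-Oa to H2-Eb1, and Ciita lies at chr16:10480059-10528418 on the plus strand. Promoter windows from RefSeq (GRCm38.p6, the assembly also called mm10) were searched on both strands for a pair of motifs. The pair was CNNNNAAC followed by TGATTGG, which holds the core of the Y box. Starts lay 30 to 40 bases apart, so that the 2 motifs never overlapped. This pair was chosen after the windows had been seen, so its matches in the members were in part fixed in advance. It was present in 97 of all 32851 windows of the same length (0.295%) and in the windows of 6 of the 7 members that had one: H2-Aa, H2-Eb1, H2-DMb1, H2-DMb2, H2-Oa and H2-Ob, with no match in H2-DMa. A stricter pair fixed earlier, CCNAGNNAC and GATTGG with starts 10 to 30 bases apart, was in 61 windows (0.186%) and in 0 of the 7. H2-Ab1, Ciita and Cd74 had no window in the table. Below are 4 of the matching stretches, those clear of annotated exons, read 5′ to 3′ on the strand of the gene, with the fixed letters of the searched motifs in capitals.
H2-Aa, chr17:34287862-34287912, minus strand: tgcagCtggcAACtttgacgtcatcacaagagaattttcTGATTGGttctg
H2-Eb1, chr17:34305768-34305817, plus strand: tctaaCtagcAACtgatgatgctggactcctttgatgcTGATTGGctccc
H2-Ob, chr17:34238810-34238857, plus strand: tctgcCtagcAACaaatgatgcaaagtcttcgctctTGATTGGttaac
H2-DMb2, chr17:34145118-34145168, plus strand: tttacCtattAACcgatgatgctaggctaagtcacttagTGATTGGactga

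The motif starts lay 34, 33, 31 and 34 bases apart in these 4 stretches, and the upstream motif began 84, 94, 90 and 126 bases before the annotated start site. Aligned from their last base, without gaps and with the searched letters included, 28% to 39.2% of bases were identical between pairs. A match describes the letters and does not show that a factor binds there.

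The matrix held 20351 cells and 58624795 UMIs, and 19488 cells remained after filtering, with a median of 1949.5 UMIs and 853 genes. Marker gates that used no member placed 16021 of them (82.2%) in 29 cell types. Type II-like epithelial cells (393 cells) were those in which 9 type II genes other than Sftpc made up at least 2% of UMIs, in the absence of Hopx. Type I-like cells (111) were under 0.5%, with Hopx and at least 2 of 9 type I genes, and intermediate epithelial cells (131) lay between. All 12 listed type II genes were detected in type II-like cells, summing to 171502 CPM, and all 10 type I genes in type I-like cells, at 16044 CPM. These lists hold the gate genes, so such values are largely fixed by the gates. Sftpc, left out of the type II share, was at 120323 CPM in type II-like cells. It was at 11428 CPM in type I-like cells and 84.2 in C1q macrophages. Of the type I-like cells, 102 of 111 carried the TdTomato reporter at 1000 CPM or more, as did 389 of the 393 type II-like cells, so both were almost entirely cells that had seen Cre. No library could be singled out, since cells carried no library name.

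The 3 chain genes together ranged over more than 2 orders of magnitude in CPM among the 29 types. The highest level was in C1q macrophages, the tissue and tumor macrophages marked by complement C1q, at 28706 CPM (28602 to 28811, 2268 cells). Type 1 and type 2 dendritic cells followed at 23861 and 22670.2 CPM, then mature dendritic cells at 12684, B cells at 7844, classical monocytes at 5291, non-classical monocytes at 4732 and plasmacytoid dendritic cells at 3431 CPM. Below these professional presenting cells came alveolar macrophages without the reporter at 2073 CPM (1967 to 2183) and type II-like epithelial cells at 1685 CPM (1628 to 1744), the highest level outside the blood lineages together with the type II-like cells that also had Hopx (1755, 1628 to 1889). Intermediate epithelial cells had 1022 CPM (928 to 1124). The top of this order depended on how cells were named. When graph clusters replaced the gates, the highest was a cluster of 1429 cells named type 2 dendritic, at 30087 CPM. The cluster named interstitial or tumor macrophage, of 1135 cells, had 25642 CPM.

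A middle band was not resolved: plasma cells (768 CPM), ciliated or club-like cells (699), general capillary endothelium (653), larger-vessel endothelium (609), alveolar macrophages with the reporter (543) and type I-like cells (518) each overlapped the next in their intervals. T and NK cells, granulocytes, stromal cells and aerocyte-like endothelium formed the low end, with neutrophils at 300.2 CPM, CD4 T cells at 222, CD8 T cells at 176, NK cells at 75.8 (54.6 to 102) and regulatory T cells at 71.1. Mouse NK cells are not known for making class II, and their level serves below as a low reference. It was near the lowest of all types, with CD8 T cells, CD4 T cells and neutrophils above it, so ratios to it are large. How much of any of these levels came from free RNA or misplaced cells was not tested.

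**Figure D1:**
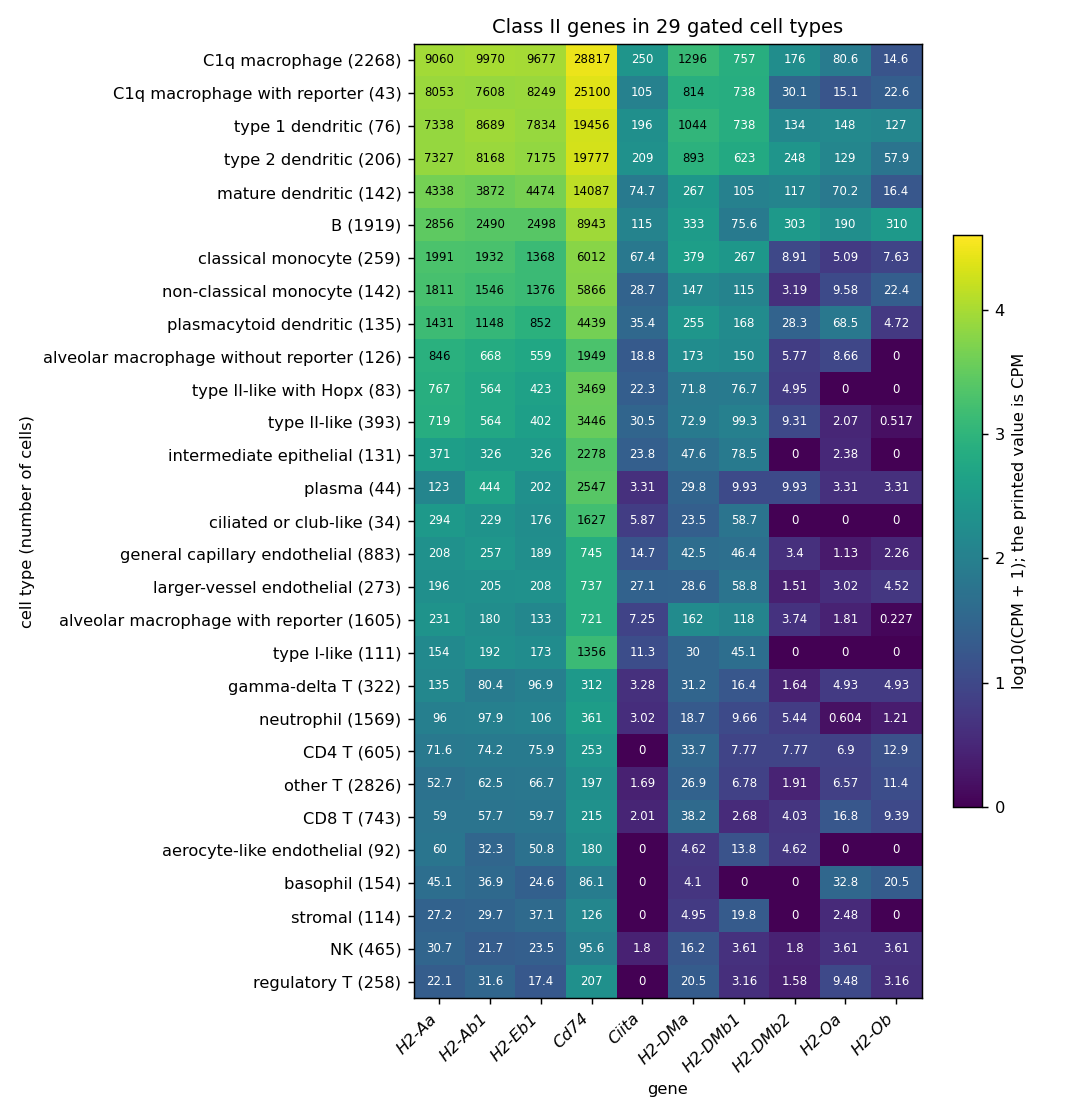
Heat map of the level of each of the 10 genes (columns) in each gated cell type (rows), as log10 of CPM + 1 over pooled cells. The chains, Cd74 and Ciita are highest in C1q macrophages, while H2-DMb2, H2-Oa and H2-Ob are highest in B cells.

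**Figure D2:**
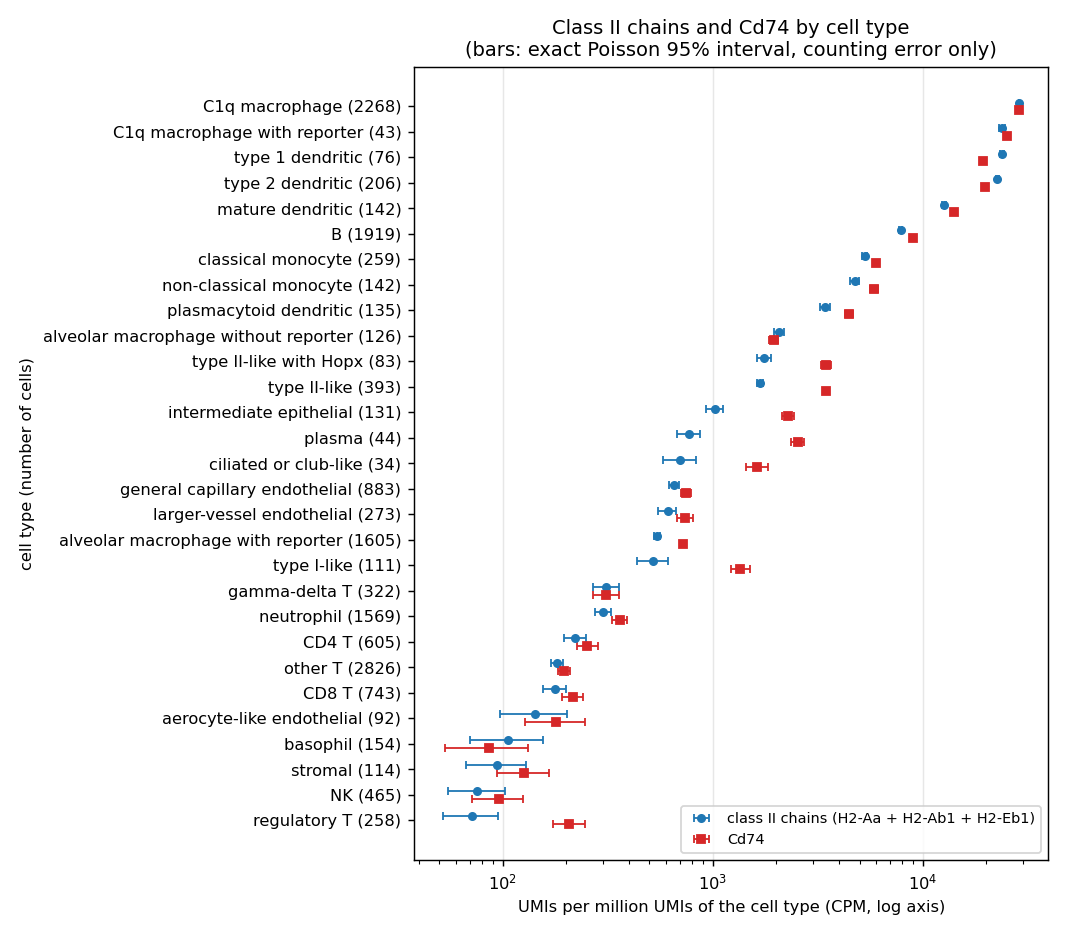
Summed level of H2-Aa, H2-Ab1 and H2-Eb1 and level of Cd74 in each gated cell type, in CPM on a log axis, with 95% exact Poisson intervals. Chains span 28706 CPM in C1q macrophages to 71.1 CPM in regulatory T cells, and type II-like cells lie above type I-like cells in both quantities.

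Each chain gene was highest in C1q macrophages, and type II-like cells lay above type I-like cells for all 3. H2-Aa, the alpha chain of the I-A molecule, was at 9059.9 CPM in C1q macrophages, 2856 in B cells, 719 (682 to 758) in type II-like cells, 154 in type I-like cells, 208 in general capillary endothelium and 30.7 in NK cells. H2-Ab1, its beta partner, was at 9970 CPM in C1q macrophages, 564 (531 to 599) in type II-like cells and 192 in type I-like cells. H2-Eb1, the beta chain of I-E, was at 9677, 402 (374 to 431) and 173 CPM in the same 3 types. Its alpha gene H2-Ea was not among the features, so these values do not show that an I-E molecule was made. The make-up of the chain UMIs did differ between types. H2-Aa gave 42.7% (95% Clopper-Pearson interval 41.0 to 44.4) of chain UMIs in type II-like cells and 42.5% in alveolar macrophages with the reporter, against 31.6% in C1q macrophages, 31.8% in general capillary endothelium and 29.7% (22.2 to 38.1) in type I-like cells. Plasma cells stood apart, with H2-Aa at 15.9% and H2-Ab1 at 57.8% (51.1 to 64.2), where B cells had 36.4% and 31.7%.

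Cd74, the invariant chain, was at 28817 CPM in C1q macrophages, 19777 in type 2 dendritic cells, 8943 in B cells, 3446 (3364 to 3530) in type II-like cells, 2278 (2136 to 2427) in intermediate cells, 1356 (1219 to 1503) in type I-like cells, 745 in general capillary endothelium and 95.6 in NK cells. Type II-like and type I-like cells ranked higher for Cd74 (11 and 16) than for the chains (12 and 19). Intermediate and ciliated or club-like cells kept the same rank in both (13 and 15). Type II-like cells lay above alveolar macrophages without the reporter (1949 CPM) for Cd74 and below them for the chains. The share of Cd74 in the summed Cd74 and chain UMIs put both quantities on one scale. It was 67.2% (66.2 to 68.1) in type II-like, 69.0% in intermediate and 72.3% (68.2 to 76.2) in type I-like cells, 69.9% in ciliated or club-like cells and 76.8% in plasma cells. C1q macrophages had 50.1%, B cells 53.3%, type 1 dendritic cells 44.9%, general capillary endothelium 53.3% and neutrophils 54.6%. Thus every epithelial type carried more Cd74 per chain UMI than any of the macrophage, dendritic, endothelial or B cells just named.

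Within the epithelium, class II was highest in the most type II-like cells. The chains were 3.25-fold higher in type II-like than in type I-like cells, a log2 ratio of 1.70 (exact conditional 95% interval 1.46 to 1.96). This ratio moved with how cells were named and scaled, at 1.00 when graph clusters replaced the gates, 4.07 in cells that passed a strict marker rule described below and 2.74 as mean UMIs per cell. H2-Aa had the widest gap at 2.22 (1.78 to 2.71), followed by H2-Ab1 at 1.56 (1.15 to 1.99) and H2-Eb1 at 1.22 (0.79 to 1.68). Cd74 differed by 1.35 (1.19 to 1.503) and H2-DMa and the H2-DMb genes summed by 1.27 (0.62 to 2.00). The class I light chain B2m went the other way on the same log2 scale, at -0.92 (-1.24 to -0.59). The other listed class I genes had intervals across 0. H2-K1 was at 0.20 (-0.061 to 0.47), H2-D1 at 0.16 (-0.097 to 0.43) and Tap1 at -0.32 (-1.71 to 1.40). Of the 6 members at 50 CPM or more in either type, 5 were past 2-fold with 10 CPM added to both levels (H2-Aa, H2-Ab1, H2-Eb1, Cd74 and H2-DMa), where 295 of 3010 genes of all kinds were (9.8%). The median log2 difference was 1.26 over those 6 members and -0.28 over all 3010 genes. H2-DMb1 missed the 2-fold line, and Ciita, H2-DMb2, H2-Oa and H2-Ob were below 50 CPM in both types.

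Ciita was at 30.5 CPM (23.2 to 39.4, 59 UMIs) in type II-like cells and 11.3 (2.32 to 32.9, 3 UMIs) in type I-like cells, and their log2 ratio of 1.44 had an interval from -0.18 to 3.76, so a difference in the transactivator was not detectable at this depth. H2-DMb1 was at 99.3 CPM (85.8 to 114) against 45.1, a log2 ratio of 1.14 (0.30 to 2.12). H2-DMb2, H2-Oa and H2-Ob had 18, 4 and 1 UMIs in all type II-like cells and 0 UMIs in type I-like cells, where 3 UMIs would be 11.3 CPM. The limits of these cell types were not sharp: 110 of 757 epithelial cells lay within 0.5 points of the 2% line and 57 of 757 within 0.2 points of the 0.5% line. The type I-like chain level rests on 138 UMIs, and in the 35 of its cells that passed a strict rule, with no UMI of other lineages' markers apart from a few less specific myeloid genes such as Ace, it was 98.6 CPM (36.2 to 215, 6 UMIs), an interval that takes in the 50.7 CPM of NK cells under the same rule. The 17 such type II-like cells, of 393, kept 1658 CPM (1290 to 2098). Most cells fell to single genes of other lists. A UMI of the plasma cell list, with Sdc1 as its top gene, was in 87.5% of type II-like and 55.0% of type I-like cells. A UMI of the neutrophil list, with Hdc on top, was in 28.0% of type II-like cells. One of the myeloid lists, less specific genes included and with Cox6a2 on top, was in 77.9% of them. Whether those UMIs came from other cells was not tested, so the rule is not shown to keep purer cells.

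Without those lines, class II increased along the share of type II genes. In cells with under 0.1% of UMIs from the 9 type II genes the chains were at 294 CPM (219 to 386, 68 cells). They were at 480 CPM from 0.1 to 0.5%, 684 from 0.5 to 1%, 1200 from 1 to 2%, 1500 from 2 to 3%, 1535 from 3 to 4%, 1716 from 4 to 5% and 1982 (1874 to 2094, 105 cells) at 5% and above. Cd74 went from 858 to 3877 CPM over the same 8 bins, in ascending order throughout, although neighbouring bins between 2 and 5% had overlapping intervals in both quantities, as did those from 0.1 to 1% for the chains and from 0.5 to 2% for Cd74. TdTomato showed no such order, between 5364 and 6421 CPM in every bin. Depth moved with the share, from a median of 2263.5 UMIs per cell in the lowest bin to 5897 in the highest, and its part in the gradient was not tested beyond the use of CPM.

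**Figure D3:**
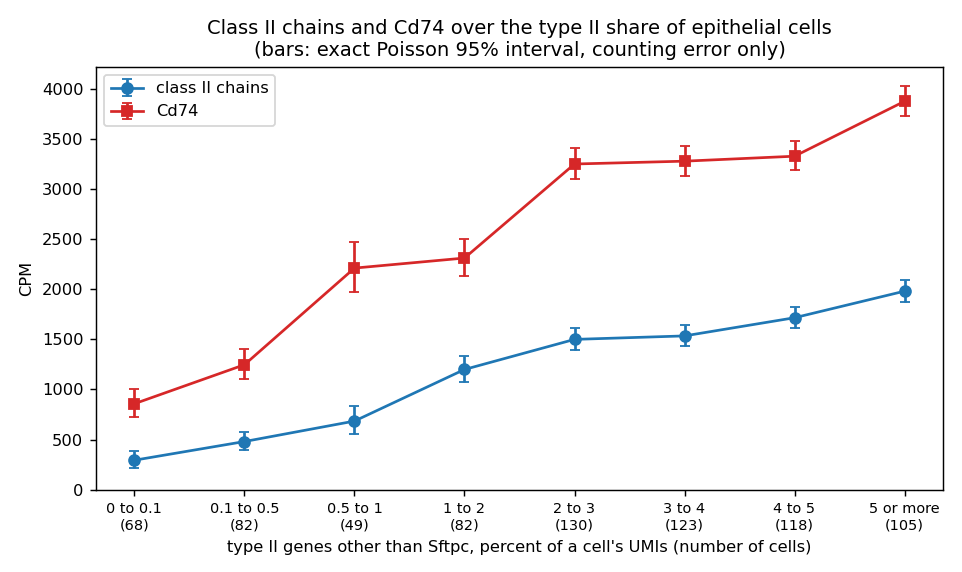
Level of Cd74 and of the summed chains (CPM, 95% exact Poisson intervals) in epithelial cells grouped by the percentage of their UMIs that came from 9 type II genes. Chains go from 294 to 1982 CPM and Cd74 from 858 to 3877 CPM between the lowest and the highest bin.

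The signal in type II-like cells was spread over nearly all of them. After thinning every cell to 1000 UMIs, 74.0% (69.3 to 78.3) of 388 type II-like cells had at least 1 chain UMI, 50.8% of intermediate cells and 26.4% (18.3 to 35.9) of 106 type I-like cells, against 3.46% (1.67 to 6.27) of NK cells and 7.47% (5.46 to 9.92) of neutrophils. Before thinning these 5 types had 95.9%, 75.6%, 42.3%, 6.02% and 7.52%, and their cells held a median of 4747, 3034, 2183, 1107 and 869 UMIs. For Cd74 the thinned shares were 90.5% in type II-like and 51.9% in type I-like cells, with 5.88% in NK cells. Per cell, the chains and Cd74 together had a median of 4910 CPM in type II-like cells, with 10% of cells below 1895 and 10% above 8283, and 0.258% at 0. The type I-like median was 1069 CPM with 29.2% of cells at 0, and in NK cells 89.6% were at 0. Relative to NK cells, the pooled chain level was 22.2-fold higher in type II-like cells (log2 ratio 4.48, 4.04 to 4.95) and 6.84-fold higher in type I-like cells (2.77, 2.27 to 3.31). The 518 CPM of type I-like cells lay closer to the 312 of gamma-delta T cells and the 300.2 of neutrophils.

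Macrophage transcripts were scarce in the epithelial gates. The 9 listed interstitial macrophage genes summed to 65.7 CPM in type II-like cells (7 of 9 detected) and 18.8 CPM in type I-like cells (3 of 9, with C1qa, Apoe and Trem2 at 0), against 14100 CPM in C1q macrophages. As a percentage of the level in C1q macrophages, type II-like cells had 5.87% of the chains, 12.0% of Cd74 and 13.1% of H2-DMb1, but 0.0589% of C1qa (4 UMIs), 0.0151% of C1qb and 0.462% of Tyrobp. Type I-like cells had 1.81% of the chains and 4.70% of Cd74, beside 0 UMIs of C1qa and 0.160% of Tyrobp. The B cell list summed to 23.3 CPM in type II-like cells. Cd79a, the B cell receptor component, was there at 0.0279% of its B cell level (1 UMI), whereas Cd79b had 42 UMIs. A UMI of the B cell gate genes was in 10.4% of type II-like cells. These lists hold gate genes and cells passing several lineages had been left out, so low values of them are in part fixed by the gates, and the part of other cells' RNA in the members' levels was not tested.

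Against neutrophils, all 6 members at 50 CPM or more in either type were past 2-fold higher in type II-like cells (34% of 3460 genes were past it in this direction). The chains were 5.61-fold (log2 ratio 2.49, 2.35 to 2.63) and Cd74 9.54-fold higher. The chain ratio turned to -0.17 on the log2 scale when graph clusters replaced the gates, where a cluster of 339 cells named neutrophil had chains at 6541 CPM. It was 1.78 with at least 500 genes per cell, 3.21 as a mean over cells, 4.55 in cells with the strict marker rule above and 4.71 as mean UMIs per cell. The median log2 difference was 2.44 over the 6 members and -0.11 over all genes tested.

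Endothelium carried a lower level that differed between vessel types. General capillary cells (883), the capillaries marked by Gpihbp1 and Plvap, had chains at 653 CPM (616 to 692), Cd74 at 745 and Ciita at 14.7. Larger-vessel cells (273) had chains at 609, Cd74 at 737 and Ciita at 27.1 CPM. Aerocyte-like cells (92), the wide gas-exchange capillaries marked by Car4 and Ednrb, had chains at 143 and Cd74 at 180 CPM, 4.57-fold and 4.14-fold below the general capillaries (log2 ratios -2.19, -2.76 to -1.68, and -2.05, -2.55 to -1.59). B2m was higher in aerocyte-like cells by 0.87 on the log2 scale. After thinning, 34.5% (31.3 to 37.9) of general capillary cells had a chain UMI, 34.0% of larger-vessel cells and 8.99% of aerocyte-like cells. Compared with NK cells the general capillary chains were 8.62-fold higher (log2 ratio 3.11, 2.66 to 3.59).

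Compared with neutrophils, 3 of the 4 members at 50 CPM or more in either type were past 2-fold higher in general capillary cells (H2-Aa, H2-Ab1 and Cd74), beside 41.8% of all genes. The median log2 difference was 1.03 over the 4 members and 0.59 over all 3924 genes. The macrophage list summed to 104 CPM in these cells (8 of 9 detected), and Tyrobp was at 1.57% and C1qa at 0.242% of their C1q macrophage levels beside 2.28% for the chains. In the 479 general capillary cells that passed the strict marker rule, which leaves out Ace, the chains were at 589 CPM, and in graph clusters they were at 1067 CPM. The 22 general capillary cells with the reporter at 1000 CPM or more had chains at 1215 CPM (883 to 1632) against 668 in the 693 cells under 300 CPM, while Cd74 differed less (856 and 750.1 CPM, with overlapping intervals).

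The macrophages of the tumors separated into extremes. C1q macrophages had a 52.9-fold higher chain level in CPM than alveolar macrophages with the reporter (log2 ratio 5.72), 39.95-fold more Cd74 and 34.4-fold more Ciita, but 7.99-fold more H2-DMa and 6.40-fold more H2-DMb1. H2-DMa was at 162 CPM in these alveolar macrophages beside H2-Aa at 231, so H2-DMa made up 41.3% of the UMIs of this pair there, against 12.5% in C1q macrophages, 17.0% in general capillary endothelium and 9.21% in type II-like cells. The 43 C1q macrophages that carried the reporter had chains at 23909 CPM, lower than the others by 0.26 on the log2 scale (0.21 to 0.31). They also held Sftpc, the surfactant gene of type II cells, at 1009 CPM against 84.2 CPM. Whether the reporter in them came with tumor cell material was not tested.

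Alveolar macrophages, the resident cells of the air spaces, had the reporter in 1605 cells (1000 CPM or more) and lacked it in 126 (under 300 CPM), with 126 of 1876 between. Those with the reporter had lower chains, at 543 CPM (528 to 559) against 2073, a 3.82-fold difference (log2 ratio -1.93, -2.02 to -1.85). Without the Chil3 minimum of the gate, which was added after a first look, the log2 ratio was -3.88. H2-Aa differed by -1.87, H2-Ab1 by -1.90, H2-Eb1 by -2.07 and Cd74 by -1.43 (-1.52 to -1.35) on that scale. Ciita was at 7.25 against 18.8 CPM (log2 ratio -1.37, -2.25 to -0.39). H2-DM did not share the gap, with H2-DMa at 162 and 173 CPM (-0.09, -0.36 to 0.19) and H2-DMb1 at 118 and 150.1 CPM (-0.34, -0.64 to -0.04). Of the 6 members tested, 4 were past 2-fold lower (the chains and Cd74), among 8 of 3046 genes in all (0.263%), and 0 were past 2-fold higher, where 2 genes were (0.0657%). Cxcl9, a chemokine that interferon-gamma induces, was at 6.005 CPM with and 115 CPM without the reporter.

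A small number of cells carried this difference. The thinned share of cells with a chain UMI was 23.3% (21.3 to 25.5) with and 23.7% (16.4 to 32.4) without the reporter, and the per-cell medians of chains and Cd74 together were 178 and 149 CPM. At or above 10000 CPM lay 13 of 126 cells without the reporter (10.3%, 5.61 to 17.0) and 45 of 1605 with it (2.80%, 2.05 to 3.73), whereas 28.6% and 25.9% reached 1000 CPM. The top 10% of cells held 77.6% of the UMIs of these 4 genes in the cells without the reporter and 63.7% in those with it. Left without their top 10%, a step chosen after the values were seen, the 2 sets had chains at 334 and 202 CPM, a log2 ratio of -0.72 (-0.93 to -0.51).

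The 13 high cells without the reporter held H2-Aa at 7189, Cd74 at 14476 and Ciita at 142 CPM (10 UMIs), where the other 113 held H2-Aa at 125 and Cd74 at 526 CPM. Since they were picked by these genes, those values are a description. They held the alveolar macrophage genes Chil3 at 27367 and Ear2 at 3906 CPM, and 0 UMIs of C1qa, C1qb, Cd79a, Xcr1, Cd209a and Ccr2. The gate asked for Chil3, set cells with C1q genes apart and left out cells of several lineages, so these values are in part fixed by it and do not bear on what the cells are. Marco, a scavenger receptor of alveolar macrophages, was at 0 UMIs in them and 164 CPM in the other 113. Of the 80 Cxcl9 UMIs in alveolar macrophages without the reporter, 79 were in these 13 cells. The 45 high cells with the reporter had H2-Aa at 3108, Ciita at 67.0, Marco at 105 and Cxcl9 at 38.3 CPM.

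**Figure D4:**
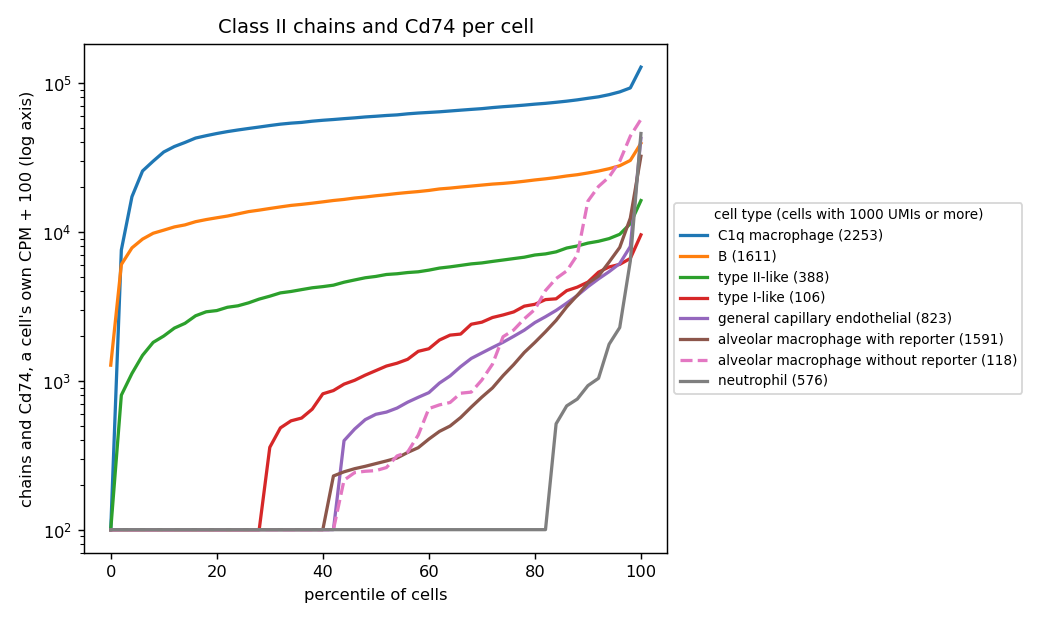
Distribution over cells of the summed level of H2-Aa, H2-Ab1, H2-Eb1 and Cd74 (CPM per cell, cells with 1000 UMIs or more) in selected cell types. Type II-like cells form 1 body around a median of 4910 CPM, whereas alveolar macrophages of both kinds lie mostly under 1000 CPM with a tail above 10000 CPM.

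Among the classical presenting cells, type 1 and type 2 dendritic cells had nearly the same chain level (log2 ratio 0.07, 0.04 to 0.11). Mature dendritic cells, the migratory state marked by Ccr7, had 1.79-fold less of the chains than type 2 dendritic cells, 2.80-fold less Ciita, 3.34-fold less H2-DMa and 5.96-fold less H2-DMb1. B2m was higher in the mature cells by 1.02 on the log2 scale. Costimulatory Cd80, Cd86 and Cd40, which give T cells their second signal, were in the mature cells at 132, 377 and 181 CPM.

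B cells held mostly the other H2-DM beta chain. B cells held H2-DMb1 at 75.6 and H2-DMb2 at 303 CPM, so that H2-DMb1 was 19.98% (17.7 to 22.4) of the UMIs of the pair, where C1q macrophages had 81.1% (80.3 to 81.9), alveolar macrophages with the reporter 96.9%, type II-like cells 91.4% (86.8 to 94.8) and general capillary endothelium 93.2% (85.7 to 97.5). Type 2 dendritic cells had 71.6% (68.1 to 74.9) and mature dendritic cells 47.3% (39.0 to 55.7), between those ends. The beta genes are close copies: 52 of the 411 windows of 90 bases in the last 500 bases of the H2-DMb1 transcript also occur in H2-DMb2 (12.7%), and 0 of the 417 of H2-DMb2 occur in H2-DMb1, so reads that match both genes may be missing from H2-DMb1 and its share is a lower estimate to that extent.

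H2-O, the brake on H2-DM, was highest in B cells. H2-Oa was at 190.4 and H2-Ob at 309.9 CPM in B cells, their highest levels, against 80.6 and 14.6 CPM in C1q macrophages. H2-O made up 41.3% (39.7 to 42.9) of the summed H2-O and H2-DM UMIs in B cells, 15.1% in mature dendritic cells, 12.5% in type 1 and 9.60% in type 2 dendritic cells, 4.10% in C1q macrophages and 1.40% (5 of 356 UMIs) in type II-like cells. The partners were unevenly paired, with H2-Oa giving 38.1% of H2-O UMIs in B cells, 53.8% in type 1 dendritic cells, 84.6% in C1q macrophages and 93.5% in plasmacytoid dendritic cells. Compared with B cells, C1q macrophages had 3.66-fold more chains, 2.18-fold more Ciita and 10.0-fold more H2-DMb1, but 1.72-fold less H2-DMb2, 2.36-fold less H2-Oa and 21.2-fold less H2-Ob.

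**Figure D5:**
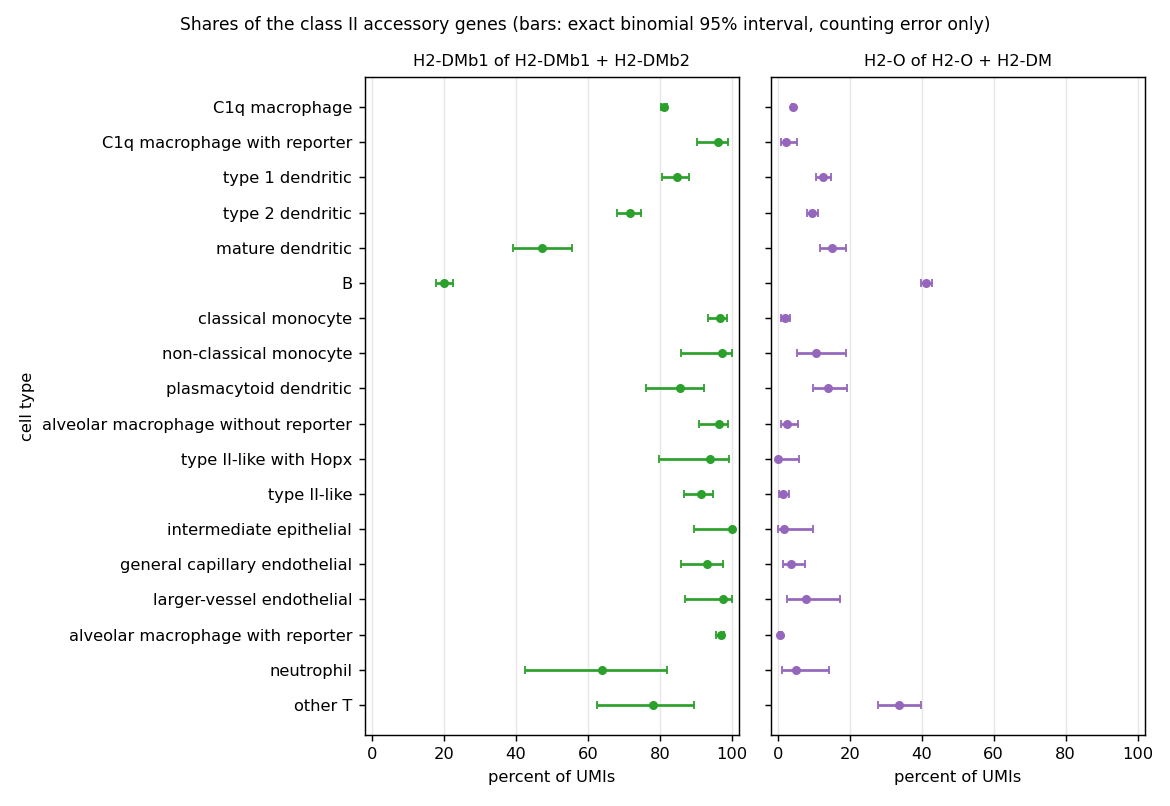
Percentage of H2-DMb1 in the UMIs of H2-DMb1 and H2-DMb2, and of H2-O in the UMIs of H2-O and H2-DM, by cell type, with 95% Clopper-Pearson intervals. B cells stand at the low end of the H2-DMb1 share (19.98%) and the high end of the H2-O share (41.3%), and types with few UMIs are left out.

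Plasma cells, which no longer present antigen, kept little of this. Their chains were 10.2-fold below those of B cells, with H2-Aa 23.3-fold, H2-Eb1 12.4-fold and H2-Ab1 5.61-fold lower, while Cd74 was 3.51-fold lower. Ciita had 1 UMI in the 44 plasma cells (3.31 CPM) beside 115 CPM in B cells.

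Ciita itself reached 50 CPM in 7 of the 29 types and had 0 UMIs in 5. It was at 249.8 CPM in C1q macrophages (2525 UMIs), 209 in type 2 and 196 in type 1 dendritic cells, 115 in B cells, 74.7 in mature dendritic cells, 30.5 in type II-like cells and 1.8 in NK cells. Over the 26 types of at least 50 cells, its log2 level correlated with that of the other core genes (chains and Cd74) at Pearson's r of 0.96, given as a description since the types share one matrix and its free RNA. H2-Aa, H2-Ab1, H2-Eb1 and Cd74, each set against the remaining core genes, had r from 0.98 to 0.99, H2-DMa and H2-DMb1 0.93, H2-DMb2 0.79, H2-Oa 0.65 and H2-Ob 0.51. Among 4900 genes outside the set, the 10 with the most similar profile were Erp29 (r = 0.88), Pkib (0.83), Tnpo3 (0.82), Cd86 (0.82), Ly86 (0.80), Irf5 (0.78), Rasgef1b (0.78), Plbd1 (0.78), Aif1 (0.78) and Syngr2 (0.77), and 4 of them were also in the 10 by Spearman's rho. Erp29 was at 154 CPM in type II-like cells, whereas Cd86 was at 1.03, Ly86 at 0.517 and Aif1 at 0 CPM there.

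The rest of the presentation pathway, taken from fixed lists of 36 genes, was uneven in the epithelium, where the genes typical of immune presenting cells were low. Ctss, the protease that trims Cd74 in presenting cells, was at 6.21 CPM in type II-like and 15.02 in type I-like cells, against 1882 in C1q macrophages, 2121 in alveolar macrophages with the reporter and 287 in B cells. Ctsl, which trims Cd74 in other tissues, was at 91.0 CPM in type II-like cells, 177 in type I-like cells, 294 in general capillary endothelium and 13.2 in B cells. Costimulatory Cd80, Cd86 and Cd40 were at 0, 1.03 and 0 CPM in type II-like cells. March1, a ligase that removes class II from the surface, was at 0 CPM in type II-like cells and 93.7 in B cells, whereas its relative March8 was at 34.1 and 0.330.

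The RFX, NF-Y and CREB factors that Ciita needs were detected in type II-like cells at 4.66 to 27.4 CPM (Rfx5 8.28, Rfxap 14.0), and Rfx5 was at 4.35 CPM in C1q macrophages. In type II-like cells compared with neutrophils, 2 genes of the interferon-gamma response were lower, unlike the members, with the transcription factor Irf1 at 36.7 against 209.6 CPM and the receptor chain Ifngr1 at 21.2 against 352 CPM. Of all genes tested, 34% were past 2-fold in that direction. Between type II-like and type I-like cells, few pathway genes reached 50 CPM: 1 of interferon-gamma signalling, 2 of antigen processing and 3 class I genes. Of these, 0 were past 2-fold in either direction, where 9.8% of all genes were past it higher in type II-like cells. The other lists had 0 genes at that level, so most of the pathway was not compared. In general capillary endothelium the interferon-induced Iigp1 and Gbp2 were at 95.1 and 30.6 CPM, where type II-like cells had 0.517 and 1.03.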

How the data were processed

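Viable cells of dissected tumors from 4 mice were profiled with 10x 3′ v3 chemistry. The authors aligned reads to mm10 and counted UMIs with Cell Ranger 3.0.2, and deposited raw counts in 1 matrix, where each cell is a column number. No deposited column or label tied a cell to a mouse, so barcodes shared between libraries were not counted and the planned Restored against Non-Restored test was not run. Columns of other samples numbered 0.

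Cells with under 200 genes (52 cells), or above the 98th percentile of genes (2713) or of the share of 13 mitochondrial genes (13.4%), were left out. Every cell in the matrix had at least 500 UMIs. Cell types were rebuilt from marker gates without members, so differences from the study's own clusters may come from these names. Each of 10 lineages needed a minimum of marker UMIs and genes (4 UMIs of 3 genes for epithelium, 3 of 2 for endothelium). Cells passing several lineages (927) or none (1875) were not used. Alveolar macrophages needed Chil3 at 1000 CPM, a rule added after a first look. The study left out non-epithelial cells with the reporter, which were kept here. Doublets were kept, and calls by Scrublet served as an alternative.

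Counts were summed per type as CPM. Exact Poisson, Clopper-Pearson and conditional intervals are at 95%. A gene was compared between types at 50 CPM in either, past 2-fold after adding 10 CPM. Thinning to 1000 UMIs used seed 1 and left out shallower cells, so that 576 of 1569 neutrophils entered. A floor of 3 UMIs was used where a level was 0. Named genes were all 10 members, the fixed pathway lists, and the 10 genes with the highest r. Several listed genes (Ifi30, H2-Ea and H2-Ea-ps) were not analysed here. A listed signalling gene is not reported here. The members and lists were chosen with earlier results of these data known. The second motif search, the removal of the top 10% of alveolar macrophages and the split at 10000 CPM were chosen after seeing values. Scripts used Python 3.11.15, numpy 2.4.6, scipy 1.17.1, pandas 2.3.3, scanpy 1.11.5 and matplotlib 3.10.9, and were tested on simulated data.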

Additional observations from a re-analysis of the deposited data

How the results depend on the processing

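No paired analysis was possible because cells could not be tied to mice. The counts of members past 2-fold stayed within 1.5 times under lower limits (20 CPM, or 1.5-fold). Among all values recomputed, 60 of 108 stayed close to the main value, meaning within 1.5 times for counts and within the counting interval for the rest. The others follow, apart from the list of most similar genes given above, and the causes were not tested. The chain level (CPM) of type II-like cells was 1782 with graph clusters in place of gates, 1622 as a mean over cells and 2202 without ribosomal and mitochondrial genes. That of type I-like cells was 98.6 under the strict marker rule, 890 in clusters and 671 without ribosomal and mitochondrial genes. General capillary cells had 589, 1067 and 885 in the same 3 settings and 580 without Scrublet doublets. Alveolar macrophages with the reporter had 506, 610 and 698, then 527 under stricter gates, 591 as a mean over cells and 636 without the Chil3 rule. Shares of cells with a chain UMI, thinned to 500, to 2000 or not at all, were 53.4, 89.6 and 95.9% in type II-like cells, 18.0, 46.0 and 42.3% in type I-like cells, 20.6, 40.2 and 44.6% in general capillary cells and 16.7, 30.0 and 43.4% in alveolar macrophages with the reporter. Under the strict rule they were 13.3% in type I-like cells and 20.4% in those macrophages. The type II-like over type I-like log2 ratio was 4.07 under the strict rule, 1.00 in clusters and 2.74 as mean UMIs per cell. The ratio of alveolar macrophages with over without the reporter was -1.73 without upper limits on genes and mitochondrial share, -1.82 under stricter gates, -2.27 under the strict rule, -1.74 without Scrublet doublets, -3.88 without the Chil3 rule, -1.75 as a mean over cells and -0.72 without the top 10% of cells. The type II-like over neutrophil ratio was 1.78 with at least 500 genes, 2.22 under stricter gates, 4.55 under the strict rule, 3.21 as a mean over cells, 2.77 without ribosomal and mitochondrial genes and 4.71 as mean UMIs per cell. In clusters it reversed to -0.17: a cluster of 339 cells named neutrophil had chains at 6541 CPM, and the other of 1501 cells had 438 CPM. Mean UMIs per cell were not run for levels. Leaving out a replicate was not run, since the pool is 1 sample.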
